A study of Homo sapiens with 33 samples.

Results

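RT112 R1 cells that had been grown without the inhibitor PD173074 were set against the RT112 cells from which they were derived, to ask what differs from the parental line once drug is withdrawn. The comparison rests on 6 of the 33 arrays of the series, 3 of R1 out of drug (R1 -PD) and 3 of parental cells that never had drug (parental), and it covers all 22411 genes with a probe set of a single gene symbol. RT112 is a human urothelial carcinoma cell line that carries an FGFR3-TACC3 fusion, and R1 is a derivative selected from it by long-term culture in PD173074, an inhibitor of the FGFR tyrosine kinases. The R1 -PD arrays were made after 4 to 6 passages out of drug. R1 kept in drug (R1 +PD), R2 -PD and R3 -PD, which are separately selected RT112 derivatives out of drug, RT112 parental cells given drug for 24 hours, and R1 -PD and parental cells of RT4, a second urothelial line with the fusion, are used beside them, with 3 arrays for each condition. The paper reports an activating HRAS mutation in R3 that parental cells, R1 and R2 lack, so contrasts with R3 also differ in HRAS. No agent other than PD173074 is named, and the drug dose is not given in the labels. R1 had a longer history in culture than its parental line, so drug history, selection and time in culture cannot be told apart. The labels do not say whether the 3 arrays of a condition come from separate cultures, so p-values measure the spread between arrays, which may be technical.

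FGFR3 is a receptor tyrosine kinase of the urothelium. When it is active it drives the RAS, RAF, MEK and ERK cascade, which in turn induces a set of feedback genes, among them the phosphatase DUSP6, the SPRY and SPRED inhibitors and the transcription factors ETV4 and ETV5. Urothelial cancers range between a luminal state, with uroplakins, FABP4 and genes controlled by PPARG, FOXA1 and GATA3, and a basal or squamous state, with keratins of stratified epithelium and cornified envelope proteins such as the SPRR family.

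Urothelial markers were measured above the level floor in R1 -PD and parental cells. Of 15 urothelial identity markers, 14 were above a log2 signal of 6 in R1 -PD and 14 in parental cells, and UPK1B, a uroplakin, had mean log2 signals of 16.60 and 16.61 in these groups. Relative to parental cells, 14 of the 15 were nevertheless lower in R1 -PD, with a median difference of -0.46 and none called. Of 10 endothelial markers none was above 6 in either group. Of 12 leukocyte markers 1 was (CD68, 9.14 in R1 -PD and 8.93 in parental cells), and of 10 fibroblast markers 1 was (LUM), with a summed linear signal over the 10 of 1735 to 2040 in R1 -PD and 939 to 1124 in parental cells. LUM, a matrix proteoglycan, itself rose in R1 -PD, with a log2 difference of 0.99 ± 0.12 (SE, adjusted p = 0.00583), and its part in other results was not tested. The mean absolute distance of an array from the parental mean, over all genes, was 0.284, 0.220 and 0.270 log2 units for R1 -PD, 0.460, 0.485 and 0.394 for R1 +PD, and 0.149, 0.130 and 0.133 for the parental arrays themselves. Array values correlated at 0.991 to 0.994 within R1 -PD and at 0.984 to 0.990 between R1 -PD and parental arrays, with genes as the points. Replicate 3 of R1 +PD stood apart from the other two in proliferation genes. The median of 52 such genes relative to parental cells was -1.85, -3.00 and 0.65 in its 3 arrays, so most counts that use R1 +PD are also given without that array. The split of called genes by their level in R1 +PD was not made again without it.

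Of 22411 genes, 324 were called between R1 -PD and parental cells, 171 higher and 153 lower, which is 1.45% of genes (0.763% higher and 0.683% lower). A gene was called at an adjusted p under 0.01 in limma with Benjamini-Hochberg adjustment over all genes, and "rose" and "fell" below are used only of called genes. Among them 192 differed by at least 1 log2 unit, 92 higher and 100 lower. The count rests on all 6 arrays. Without 1 array, it was 93 to 239 when an R1 -PD array or parental replicate 1 was left out (130, 239 and 93 without R1 -PD replicates 1, 2 and 3, and 95 without parental replicate 1), 11 without parental replicate 2 and 19 without parental replicate 3. The split between directions depended on scaling. It was 314 higher and 151 lower (67.5% higher, against 52.8%) when the arrays were quantile normalized again. Values are log2 signals per the labels, which makes 1 unit a doubling. They reach 19.88, which is high for RMA, and whether a further step was applied is not given in the sources used here, so differences are better read as log2 units than as folds. Since signals were not tested against background, a difference that ends near the array medians of 4.86 to 5.08 is a lower limit. In these bulk extracts, fewer cells of a kind and less RNA per cell cannot be told apart.

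The 12 largest rises were led by LCP1, which encodes L-plastin, an actin-bundling protein of leukocytes that carcinomas can also express. Its log2 signal was 12.59, 11.87 and 12.06 in the R1 -PD arrays, against 7.69, 7.51 and 7.53 in parental cells, a rise of 4.60 ± 0.18 (SE, adjusted p = 0.00022). R1 in drug had 11.90, 11.25 and 13.16, so LCP1 was high in both R1 states and low in all parental arrays. KRT6C, a keratin of stressed and squamous epithelium, had 13.53, 14.08 and 13.31 in R1 -PD, against 9.49, 8.95 and 9.30 in parental cells (4.39 ± 0.22, adjusted p = 0.00047). The near-identical KRT6A and KRT6B were not measured, so the KRT6C signal may hold theirs. KLK6, a secreted serine protease of the kallikrein family, had 12.93, 12.49 and 12.23 in R1 -PD, against 9.26, 8.30 and 8.63 in parental cells (3.82 ± 0.27, adjusted p = 0.0015). SPRR1B, a precursor of the cornified envelope, had 10.03, 10.95 and 10.23 in R1 -PD, against 7.23, 6.69 and 7.54 in parental cells (3.25 ± 0.29, adjusted p = 0.00227). In all 4 the R1 -PD arrays were the higher ones, which the choice of genes without overlap had fixed.

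The other 8 of the largest rises were between 2.33 and 2.96 log2 units. They were GLIPR1 (2.96), a secreted-protein family member first described in glioma, the transmembrane protein HEG1 (2.91), the zinc finger gene ZNF562 (2.69), the pyrimidine salvage enzyme cytidine deaminase CDA (2.55), the epidermal transglutaminase TGM5 (2.5), SAMD9 (2.41), an interferon-inducible protein with antiviral activity, PTGS2 (2.33), the inducible cyclooxygenase, and the adaptor FYB1 (2.33). ZNF562 had the smallest adjusted p of all genes, 0.000126, with 9.25, 9.39 and 9.43 in R1 -PD and 6.6, 6.73 and 6.66 in parental cells. SAMD9 had 12.47, 12.87 and 12.85 in R1 -PD and 10.34, 10.25 and 10.37 in parental cells. In both genes the groups were far apart beside the spread within them.

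The 12 largest falls were led by DHRS2, a short-chain dehydrogenase. It had 6.71, 8.77 and 8.37 in R1 -PD, against 11.88, 13.19 and 13.43 in parental cells, a log2 difference of -4.88 ± 0.59 (adjusted p = 0.00609). The lowest array of each group was its replicate 1. BTBD16, a BTB domain protein, had 5.24, 6.09 and 5.39 in R1 -PD, against 9.52, 10.56 and 10.52 in parental cells (-4.63 ± 0.33, adjusted p = 0.0015), which places it near the array median without drug. SLC14A1, the urea transporter of urothelium and red cells, had 5.15, 5.33 and 6.08 in R1 -PD, against 8.78, 9.36 and 9.87 in parental cells (-3.82 ± 0.32, adjusted p = 0.00218). CYP24A1, which inactivates vitamin D metabolites, had 8.31, 8.67 and 7.76 in R1 -PD, against 11.18, 12.15 and 12.67 in parental cells (-3.75 ± 0.38, adjusted p = 0.00357).

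CEACAM6, a cell surface adhesion molecule of epithelia, fell by 3.67 but kept a high signal, 11.93, 13.29 and 12.38 in R1 -PD against 16.08, 16.25 and 16.28 in parental cells. SPP1, the secreted matrix protein osteopontin, fell by 3.58. The genes PLEKHS1 (-3.42), SPTSSB (-3.22), a subunit of serine palmitoyltransferase, and POF1B (-2.97), an actin-binding protein of epithelial junctions, also fell. LAPTM5, a lysosomal membrane protein known from leukocytes, fell by 2.43, the axon guidance ligand SLIT3 by 2.38 and FABP4, a fatty acid binding protein and PPARG target, by 2.29. FABP4 had 14.45, 14.92 and 14.59 in R1 -PD and 16.97, 16.91 and 16.95 in parental cells, a high signal in both groups. The LAPTM5 call rests on all 6 arrays, since its adjusted p was 0.0101 to 0.0298 when any of them was left out. Of 63 called genes named by rule, 10 others also lost the call whichever of the 6 arrays was left out, namely LOXL1, GPAM, KDM1A, CCNA2, HMMR, AKR1C3, AKR1C1, PITX1, MAGEA1 and LUM. In the fit over all arrays of the line the adjusted p was 0.551 for CCNA2, 0.551 for HMMR, 0.217 for LUM, 0.109 for AKR1C1, 0.0295 for AKR1C3 and 0.0182 for GPAM, so these calls were lost there too. That fit also lost the calls of C3 (adjusted p = 0.088), AKR1B10 (0.0291), COX7B (0.0239), PTGS2 (0.0222), ACSL1 (0.0136), FZD6 (0.0117) and GLIPR1 (0.0101).

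**Figure D1:**
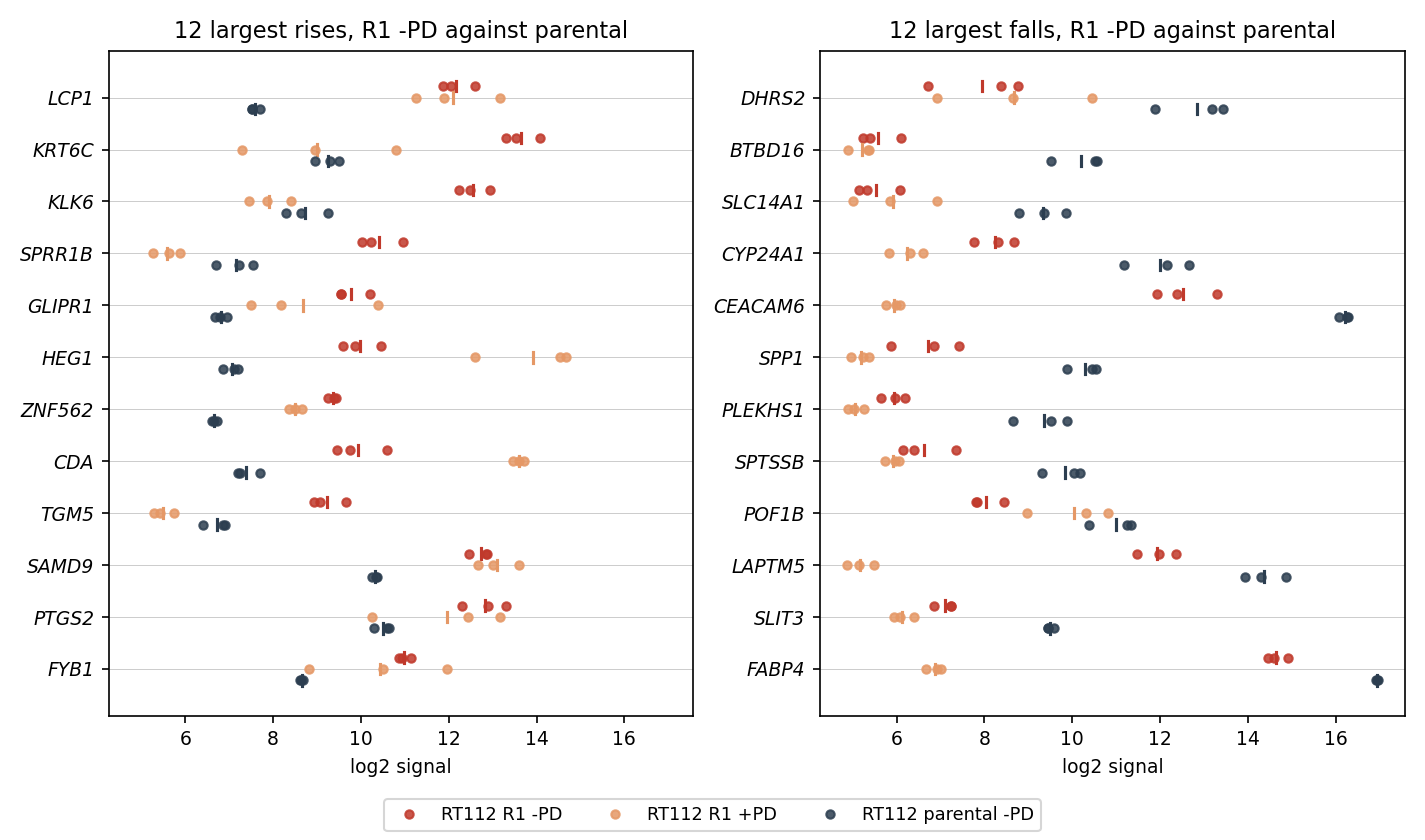
Log2 signal of the 12 genes with the largest rises (left) and the 12 with the largest falls (right) between R1 -PD and parental cells, 1 point per array and a tick at each group mean, with R1 -PD on top, R1 +PD in the middle and parental cells at the bottom of each row. The R1 -PD and R1 +PD points of LCP1 and SAMD9 overlap, KRT6C, KLK6, SPRR1B and TGM5 are higher in R1 -PD than in the other groups, and CEACAM6, LAPTM5 and FABP4 lie between R1 +PD and parental cells.

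Promoter sequences of 5 of these genes are given: 4 with some of the largest changes, and SAMD9L, the neighbour of SAMD9, which also rose. Each runs from 250 bases before to 50 bases after the gene start in RefSeq (GRCh38.p14), and capitals mark matches to short motifs. The motifs searched, on both strands, were the AP-1 site TGANTCA, the interferon-stimulated response element (ISRE) and the TEAD site GGAATG. For the TATA box the letters were TATAAA. For the GATA factors they were AGATAA, which matched none of the 5. SPRR1B is at chr1:153030953-153031252 on the plus strand, SAMD9 at chr7:93117930-93118229 and its neighbour SAMD9L at chr7:93148336-93148635, both on the minus strand, LCP1 at chr13:46182128-46182427 on the minus strand and DHRS2 at chr14:23629865-23630164 on the plus strand.
LCP1: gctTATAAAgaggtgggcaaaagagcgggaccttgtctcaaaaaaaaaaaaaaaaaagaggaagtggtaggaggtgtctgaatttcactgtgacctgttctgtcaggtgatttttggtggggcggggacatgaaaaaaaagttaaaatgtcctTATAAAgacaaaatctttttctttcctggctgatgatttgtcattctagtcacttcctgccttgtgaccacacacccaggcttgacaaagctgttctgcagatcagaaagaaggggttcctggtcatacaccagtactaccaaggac
SPRR1B: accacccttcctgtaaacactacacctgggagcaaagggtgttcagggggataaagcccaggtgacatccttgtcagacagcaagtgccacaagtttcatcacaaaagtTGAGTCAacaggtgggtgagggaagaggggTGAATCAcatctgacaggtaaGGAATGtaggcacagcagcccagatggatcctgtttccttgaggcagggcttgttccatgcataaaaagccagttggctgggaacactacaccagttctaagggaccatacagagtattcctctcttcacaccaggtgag
SAMD9: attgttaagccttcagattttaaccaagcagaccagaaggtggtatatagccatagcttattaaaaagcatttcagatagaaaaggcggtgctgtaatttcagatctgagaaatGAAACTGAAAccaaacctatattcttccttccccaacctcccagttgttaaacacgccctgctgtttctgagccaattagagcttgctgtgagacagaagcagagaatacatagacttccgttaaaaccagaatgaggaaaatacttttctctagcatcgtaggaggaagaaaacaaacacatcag
SAMD9L: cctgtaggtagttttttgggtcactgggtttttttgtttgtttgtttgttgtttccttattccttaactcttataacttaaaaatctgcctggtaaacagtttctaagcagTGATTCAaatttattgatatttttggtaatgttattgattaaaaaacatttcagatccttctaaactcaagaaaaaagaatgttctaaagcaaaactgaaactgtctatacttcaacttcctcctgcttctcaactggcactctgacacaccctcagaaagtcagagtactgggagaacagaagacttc
DHRS2: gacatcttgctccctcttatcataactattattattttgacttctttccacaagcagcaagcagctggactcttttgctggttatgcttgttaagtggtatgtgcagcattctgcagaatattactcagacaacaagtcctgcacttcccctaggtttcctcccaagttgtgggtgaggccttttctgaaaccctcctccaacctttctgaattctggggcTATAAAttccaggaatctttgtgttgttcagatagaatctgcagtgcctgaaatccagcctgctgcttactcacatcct

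The SPRR1B promoter holds 2 AP-1 matches, at -141 and -111 from the start, and a TEAD match at -90. The SAMD9 promoter holds an interferon response element match at -136, which the SAMD9L window lacks, and SAMD9L holds an AP-1 match at -139. LCP1 has TATA box letters at -247 and -97, and DHRS2 has them at -29. No printed match overlaps another. The windows of KLK6 and BTBD16, also among the largest changes, were searched and are not printed. That of KLK6 held none of the motifs, and that of BTBD16 held a TEAD match at -158. Of 27305 RefSeq promoters of this length, 7.76% hold the AP-1 letters, 3.65% those of the interferon element, 14.0% those of TEAD, 10.5% those of GATA and 12% those of the TATA box. Among 15374 promoters of genes tested here the shares were 6.15%, 3.14%, 12%, 7.92% and 9.46%. Promoters were matched for 135 of the 171 genes that rose and for 111 of the 153 that fell. In those that rose the shares were 5.93%, 2.96%, 11.1%, 5.93% and 11.1%, and in those that fell 4.5%, 0%, 11.7%, 8.11% and 11.7%.

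Levels in R1 +PD divided the 324 called genes by whether R1 -PD also differed from R1 +PD. No call was made against R1 +PD for 241 of them, 52 lay between R1 +PD and parental cells with both differences called, 27 were called higher than both and 4 lower than both. Over all genes 5.69% were called against R1 +PD, and 13.8% without R1 +PD replicate 3. The split was not made again without that array, so the 241 may include genes that would then be called. These values share the R1 -PD and parental arrays with the main comparison and are given side by side. Among the 241, LCP1 differed by 0.07 between R1 -PD and R1 +PD (adjusted p = 0.952), SAMD9 by -0.36 (adjusted p = 0.438), SLC14A1 by -0.41 (adjusted p = 0.681), DHRS2 by -0.72 (adjusted p = 0.705) and BTBD16 by 0.36 (adjusted p = 0.435). HOXC10, a homeobox transcription factor, had 7.01, 7.07 and 6.78 in R1 -PD, 6.85, 7.02 and 7.02 in R1 +PD and 5.79, 6.02 and 5.92 in parental cells, which gives a rise of 1.04 over parental cells and a difference of -0.01 from R1 +PD (adjusted p = 0.973). ALDH3A1, an aldehyde dehydrogenase, had 6.32, 6.58 and 6.36 in R1 -PD, 6.12, 6.58 and 6.23 in R1 +PD and 8.35, 8.62 and 8.82 in parental cells, a fall of 2.18 with a difference of 0.11 from R1 +PD (adjusted p = 0.712). A p above the threshold does not show that the levels are equal. The 95% interval of the difference between R1 -PD and R1 +PD was -0.29 to 0.27 for HOXC10, -0.25 to 0.47 for ALDH3A1, -1.09 to 1.23 for LCP1 and -3.01 to 1.58 for DHRS2, whose R1 +PD arrays ran from 6.91 to 10.44. Without R1 +PD replicate 3 the differences were 0.60 for LCP1, -0.58 for SAMD9, -0.87 for SLC14A1 and -1.59 for DHRS2, and none of them was called.

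The 52 genes with a level between that in drug and that of parental cells include ANXA10, an annexin of gastric and urothelial epithelium. It had 12.34, 12.27 and 12.48 in R1 -PD, 4.95, 5.16 and 5.03 in R1 +PD and 14.15, 13.81 and 13.83 in parental cells. It was 7.32 higher than in R1 +PD (adjusted p = 4.03e-06) and 1.57 lower than in parental cells (adjusted p = 0.00182). FABP4 was 7.78 higher than in R1 +PD (adjusted p = 1.89e-05), LAPTM5 6.78 higher (adjusted p = 0.000305), CEACAM6 6.59 higher (adjusted p = 0.000452) and the membrane serine protease TMPRSS4 5.0 higher (adjusted p = 0.000452), while all 4 stayed below parental cells. HEG1 and CDA lay between from the other side, with differences from R1 +PD of -3.96 (adjusted p = 0.00748) and -3.66 (adjusted p = 0.00138) and values above parental cells. HSD3B1, a steroid dehydrogenase, had 8.5, 7.93 and 7.46 in R1 -PD, 14.53, 12.33 and 14.64 in R1 +PD and 6.07, 6.29 and 6.29 in parental cells. Its difference was -5.87 from R1 +PD (adjusted p = 0.00329) and 1.75 from parental cells (adjusted p = 0.00983).

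The 27 genes called higher in R1 -PD than in both R1 +PD and parental cells include KLK6, SPRR1B, TGM5 and SERPINB13. KLK6 had 7.46, 7.85 and 8.41 in R1 +PD and was 4.64 higher without drug (adjusted p = 0.000608). SPRR1B had 5.26, 5.62 and 5.87 in R1 +PD and was 4.82 higher (adjusted p = 0.000525), although in drug it was 1.57 lower than in parental cells (adjusted p = 0.00845). TGM5 was 3.73 higher than in R1 +PD (adjusted p = 0.000589) and SERPINB13, a serine protease inhibitor of squamous epithelium, 2.56 higher (adjusted p = 0.000239). KRT6C was 4.63 higher than in R1 +PD with an adjusted p of 0.015, which is not called, its R1 +PD arrays running from 7.28 to 10.80. Without R1 +PD replicate 3 the difference was 5.53 (adjusted p = 0.000811). For each of these 5 genes the R1 -PD arrays did not overlap the R1 +PD arrays. For KLK6, SPRR1B, TGM5 and SERPINB13 their choice by a call against R1 +PD had made this likely, so it adds no support.

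Between R1 -PD and R1 +PD, 1275 genes were called, 668 higher and 607 lower without drug (5.69% of genes, 2.98% higher and 2.71% lower), and without R1 +PD replicate 3 the count was 3091 (13.8% of genes, 7.05% higher and 6.74% lower). Between R1 +PD and parental cells 2623 were called, 1161 higher and 1462 lower (11.7%, of which 5.18% higher and 6.52% lower), and 4837 without that array. The 2 comparisons and the main one share arrays, so their counts are not independent.

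Of 25 FGFR and ERK output genes, 1 was called between R1 -PD and parental cells (4%, against 1.45% of all genes). The median difference was -0.16 (all genes 0.00), and 16 of the 25 were below 0. With all arrays kept, other settings called 0 to 4 of them. Between R1 -PD and R1 +PD 12 were called (48%, against 5.69% of all genes), all higher without drug, with a median of 0.81. Without R1 +PD replicate 3, 12 were higher and 3 lower. DUSP6 had mean log2 signals of 10.87 in R1 -PD, 5.62 in R1 +PD and 11.96 in parental cells. It was 5.25 higher than in R1 +PD (adjusted p = 0.000452), and its difference from parental cells was -1.09 (adjusted p = 0.0644). ETV4 was at -1.60 (adjusted p = 0.0441) and ETV5 at -0.58 (adjusted p = 0.0224), neither of which is called. The one call was EPHA4, an ephrin receptor tyrosine kinase. It had 8.90, 8.55 and 8.79 in R1 -PD, 10.39, 10.33 and 9.49 in R1 +PD and 7.42, 7.43 and 7.39 in parental cells, and rose by 1.33 over parental cells (adjusted p = 0.00185). It was also the only called one of 49 receptor tyrosine kinases (2.04%, near the share over all genes), whose median difference was 0.02. FGFR3 had 8.31, 9.38 and 9.02 in R1 -PD, 7.45, 7.47 and 7.61 in R1 +PD and 9.87, 10.42 and 10.61 in parental cells. It lay between the other groups without a call against either in the main fits (1.39 against R1 +PD, adjusted p = 0.0179, and -1.40 against parental cells, adjusted p = 0.0353). Against parental cells FGFR3 was called in limma with the replicate number as a block (adjusted p = 0.00532) and in the fit over all RT112 arrays (adjusted p = 0.00259). EGFR (0.24, adjusted p = 0.261) and MET (0.04, adjusted p = 0.851) were not called, and IGF1R was at 0.61 (adjusted p = 0.0161).

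Genes of the luminal state had the largest share of calls among the lists. Of 32 measured, 5 fell and none rose (15.6% called, against 1.45% of all genes), 28 were below 0, and the median difference was -0.67. The 5 were DHRS2, FABP4, the epithelial sodium channel subunits SCNN1A (-2.20, adjusted p = 0.00354) and SCNN1G (-1.68, adjusted p = 0.00218), and TOX3, a chromatin-associated factor (-1.62, adjusted p = 0.000888). SCNN1G had 5.96, 6.26 and 6.02 in R1 -PD, 8.39, 9.40 and 9.30 in R1 +PD and 7.49, 7.91 and 7.87 in parental cells, so it was one of the 4 genes below both. The uroplakin UPK1A had 6.96, 10.59 and 9.33 in R1 -PD, 18.29, 18.75 and 17.65 in R1 +PD and 11.94, 14.53 and 14.88 in parental cells. Its difference was -9.27 from R1 +PD (adjusted p = 0.00228) and -4.82 from parental cells (adjusted p = 0.0392, not called). Against parental cells UPK1A was called in limma with the replicate number as a block (adjusted p = 0.00107) and in the fit over all RT112 arrays (adjusted p = 0.00724). By array, the list median relative to the parental mean was -0.95, -0.33 and -0.68 in R1 -PD, 0.10, 0.18 and -0.16 in R1 +PD and -0.33, 0.14 and 0.20 in parental cells. R1 -PD replicate 2 and parental replicate 1 came to the same value, so the groups touch. Replicate 1 was the lowest array in both of these groups. R2 -PD had -1.18, -0.63 and -0.81 and R3 -PD had -0.72, -0.44 and -0.60. The list median was thus below the parental mean in R2 -PD and R3 -PD too, and is not particular to R1 -PD. The luminal transcription factors themselves were not called, with PPARG at -0.46 (adjusted p = 0.0625), GATA3 at -0.38 (adjusted p = 0.364) and FOXA1 at -0.89 (adjusted p = 0.0744), and none of 15 urothelial differentiation genes was called (median -0.38).

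On the basal and squamous side, 3 of 36 genes rose and none fell (8.33% called), with a median of 0.20. These were KRT6C, SPRR1B and SERPINB13. Against R1 +PD, 8 were higher and 1 lower (25% called, against 5.69% of all genes), with a median of 0.75 (11 and 2 without R1 +PD replicate 3). The basal keratins KRT5 (0.31, adjusted p = 0.761) and KRT14 (0.18, adjusted p = 0.381) and the basal integrin subunit ITGA6 (0.36, adjusted p = 0.160) were not called against parental cells, and KRT4 was at -3.24 (adjusted p = 0.0445). SERPINB13 had 8.11, 8.16 and 8.21 in R1 -PD, 5.67, 5.52 and 5.62 in R1 +PD and 7.03, 6.68 and 6.91 in parental cells, and rose by 1.29 (adjusted p = 0.00218). The gap between R1 -PD and each other group was wider than the spread within any of them.

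Of 67 mesenchymal and matrix genes, 1 rose and 3 fell against parental cells (5.97% called). The median was 0.14, and 53 of the 67 were above 0, against 11253 of 22411 genes. Other lists leaned the same way, with 9 of 10 endothelial genes, none above log2 6, and 30 of 34 cancer-testis genes above 0. By array, the mesenchymal median over the parental mean was 0.26, 0.05 and 0.11 in R1 -PD. The medians of these R1 -PD arrays were 5.02, 4.91 and 5.05, against 4.97, 4.98 and 4.92 in parental cells. The part of array scaling in the count was not tested. Of the 67 mesenchymal and matrix genes, 5 were higher and 10 lower against R1 +PD (22.4% called, against 5.69% of all genes, median -0.32). Without R1 +PD replicate 3 it was 7 and 13. ITGA5, a fibronectin receptor subunit, rose by 1.03 (adjusted p = 0.00400), with 6.63, 6.56 and 6.28 in R1 -PD and 5.47, 5.38 and 5.53 in parental cells. The 3 that fell were LOXL1 (-1.67, adjusted p = 0.00871), which crosslinks elastin, S100A4 (-1.37, adjusted p = 0.000943), a calcium-binding protein of motile cells, and PLAU (-1.15, adjusted p = 0.00348), the urokinase plasminogen activator. FN1, fibronectin, had 12.35, 12.93 and 11.65 in R1 -PD, 15.76, 15.16 and 15.80 in R1 +PD and 10.75, 10.82 and 10.99 in parental cells. It was lower than in drug (-3.26, adjusted p = 0.00295) and at 1.46 against parental cells (adjusted p = 0.0295, not called), with no overlap between any of the groups. SNAI2, an epithelial to mesenchymal transition factor, was likewise lower than in drug (-2.17, adjusted p = 0.0014) and at 0.93 against parental cells (adjusted p = 0.0218). CDH1 (E-cadherin) was at -0.23 and VIM (vimentin) at 0.01, both uncalled. Among 38 epithelial adhesion genes, DSP, the desmosomal linker desmoplakin, rose by 1.61 (adjusted p = 0.00354) and CEACAM6 fell (5.26% called, median -0.24).

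Of 48 interferon response genes, 3 rose against parental cells and none fell (6.25% called, median 0.03). These were SAMD9, SAMD9L and IFI16, a DNA sensor. SAMD9L had 9.55, 9.89 and 9.68 in R1 -PD, 12.12, 12.97 and 11.18 in R1 +PD and 7.81, 7.56 and 7.65 in parental cells, and rose by 2.03 (adjusted p = 0.000736). IFI16 had 9.62, 9.93 and 9.58 in R1 -PD and 7.48, 7.65 and 8.17 in parental cells (1.94, adjusted p = 0.00307). IFIT1, a classical member, was at 0.02 (adjusted p = 0.960), and it was 2.87 lower than in R1 +PD (adjusted p = 0.00479). Against R1 +PD, 9 of the 48 were lower and none higher (18.8% called, against 5.69% of all genes), with a median of -0.69. Without R1 +PD replicate 3, 21 were lower and 1 higher. IFI6 had 7.34, 7.83 and 6.99 in R1 -PD, 14.65, 16.78 and 13.69 in R1 +PD and 6.89, 6.70 and 6.82 in parental cells, so its R1 -PD arrays lay close to the parental ones.

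Of 31 antigen presentation genes 1 rose and 1 fell (6.45% called, median 0.01). IFI30, a lysosomal thiol reductase that prepares antigens for class II, had 12.38, 12.60 and 12.09 in R1 -PD and 10.51, 9.91 and 10.04 in parental cells (2.20, adjusted p = 0.00226). HLA-C was at -1.15 (adjusted p = 0.00712), a value that is uncertain because 7 probe sets carry its symbol and class I genes are near copies of each other. In the list of 43 chemokines and NF-kB targets PTGS2 (2.33, adjusted p = 0.00366) and the complement component C3 rose (4.65% called, against 1.45% of all genes), with a list median of 0.04. With each of the 6 arrays left out in turn, PTGS2 kept the call in 2 fits and C3 in 1. C3 rose by 2.18 (adjusted p = 0.00886) and had 8.0, 9.28 and 8.77 in R1 -PD and 6.64, 6.48 and 6.4 in parental cells.

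Of 55 xenobiotic and steroid metabolism genes, 5 fell and none rose (9.09% called), although the list median was 0.03. Besides CYP24A1 they were 4 aldo-keto reductases, which reduce aldehydes, ketones and steroids. AKR1C3 had 10.67, 10.64 and 10.31 in R1 -PD, 8.65, 8.65 and 8.58 in R1 +PD and 11.80, 11.79 and 11.55 in parental cells (-1.17 against parental, adjusted p = 0.00393). AKR1B10 was at -1.25 (adjusted p = 0.00609), AKR1C1 at -0.94 (adjusted p = 0.00933) and AKR1C4 at -0.65 (adjusted p = 0.00902). These are close paralogs, so their probe sets may share signal. GCLC, the catalytic subunit of the enzyme that limits glutathione synthesis, had 8.0, 8.27 and 8.08 in R1 -PD and 9.29, 9.54 and 9.33 in parental cells, a fall of 1.27 (adjusted p = 0.00227). It and ALDH3A1 were the 2 called among 24 drug tolerance markers (8.33%, median -0.07).

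Most oxidative phosphorylation genes lay below parental level. Of 46 measured, 42 were below 0 and the median was -0.42, while over all genes 11006 of 22411 were below 0. Only 3 were called, all lower (6.52%). SDHD, a membrane anchor of succinate dehydrogenase, had 10.15, 10.33 and 10.08 in R1 -PD, against 11.13, 11.20 and 11.32 in parental cells (-1.03, adjusted p = 0.00308). COX7B, of cytochrome c oxidase, fell by 0.89 (adjusted p = 0.00307) and NDUFB5, of complex I, by 0.68 (adjusted p = 0.00488). By array, the list median relative to the parental mean was -0.42, -0.28 and -0.48 in R1 -PD, -0.80, -1.0 and -0.67 in R1 +PD, -0.15, 0.07 and -0.12 in R2 -PD, 0.03, 0.06 and 0.15 in R3 -PD and -0.01, -0.01 and 0.03 in parental cells. The R1 -PD arrays thus lay between R1 +PD and the other lines. Against R3 -PD 6 of the 46 were lower (13%, against 0.821% of all genes) and none higher.

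Lists with many calls against R1 +PD could have none against parental cells. Over all genes 5.69% were called against R1 +PD, and 13.8% without R1 +PD replicate 3. Ribosome biogenesis had 31 of 39 genes (79.5%) higher in R1 -PD than in R1 +PD (median 1.29, and 33 without R1 +PD replicate 3). Against parental cells 0 of the 39 were called (median 0.09). YAP and TAZ targets had 9 of 23 (39.1%) lower than in R1 +PD (median -1.08). Without R1 +PD replicate 3, 12 were lower and 1 higher. Against parental cells 0 of the 23 were called (median 0.15). Of 20 cholesterol synthesis genes, 34 hypoxia and glycolysis genes, 32 stress response genes and 24 p53 targets, none was called against parental cells, with medians of -0.10, -0.07, 0.16 and 0.05. Against R1 +PD, 0, 3, 1 and 3 of these were called (0%, 8.82%, 3.12% and 12.5%), with medians of 0.87, 0.17, 0.11 and -0.19. Without R1 +PD replicate 3, 8 of the 20 cholesterol synthesis genes were called, all higher in R1 -PD, with a median of 1.23. In that fit 8 hypoxia and glycolysis genes were higher and 5 lower, 4 and 1 of stress response, and 1 and 5 of p53 targets. Of 52 proliferation genes, 3.85% were called against parental cells (1.45% of all genes), around a median of -0.04. CCNA2, a cyclin of S phase, rose by 0.83 (adjusted p = 0.00401) and HMMR, a spindle-associated hyaluronan receptor, fell by 0.67 (adjusted p = 0.00672). Against R1 +PD, 0 of the 52 were called (median 1.35), and without R1 +PD replicate 3, 31 were called, all higher in R1 -PD (median 2.38). At an unadjusted p under 0.05, limma gave 5076 of 22411 genes in this comparison, so an uncalled list may still hold smaller differences.

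Among developmental regulators, 3 of 46 HOX and patterning genes rose and none fell (6.52%, against 1.45% of all genes, median 0.06). SOX9, a transcription factor of progenitor cells, had 9.27, 9.66 and 9.23 in R1 -PD, 7.80, 8.61 and 7.35 in R1 +PD and 7.79, 7.58 and 7.64 in parental cells (1.72, adjusted p = 0.00185). HOXC10 is described above, and PITX1 rose by 0.54 (adjusted p = 0.00947). WNT5A, a ligand of non-canonical Wnt signalling, fell by 1.41 (adjusted p = 0.0027) and its receptor family member FZD6 rose by 0.70 (adjusted p = 0.00609). They were the 2 called of 61 Wnt, Notch and TGF-beta genes (3.28%, against 1.45% of all genes). IGFBP4, a secreted binding protein of insulin-like growth factors, had 7.75, 7.74 and 7.70 in R1 -PD, 6.0, 5.82 and 6.57 in R1 +PD and 10.13, 9.63 and 9.83 in parental cells. It fell by 2.13 (adjusted p = 0.000888), the 1 call among 33 IGF and growth factor ligand genes (3.03%, median 0.10). Among 45 proteases and inhibitors (8.89% called), KLK6 rose and TFPI (-2.00, adjusted p = 0.00047), an inhibitor of tissue factor coagulation, TMPRSS4 (-1.41, adjusted p = 0.00493) and PLAU fell. KDM1A, a histone demethylase, was the 1 called of 50 chromatin modifiers (1.22, adjusted p = 0.00829). That is 2% of the list, near the share over all genes, with a list median of -0.03. Of 34 cancer-testis genes MAGEA6 (0.95, adjusted p = 0.00354) and MAGEA1 (0.67, adjusted p = 0.00566) rose (5.88% called).

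**Figure D2:**
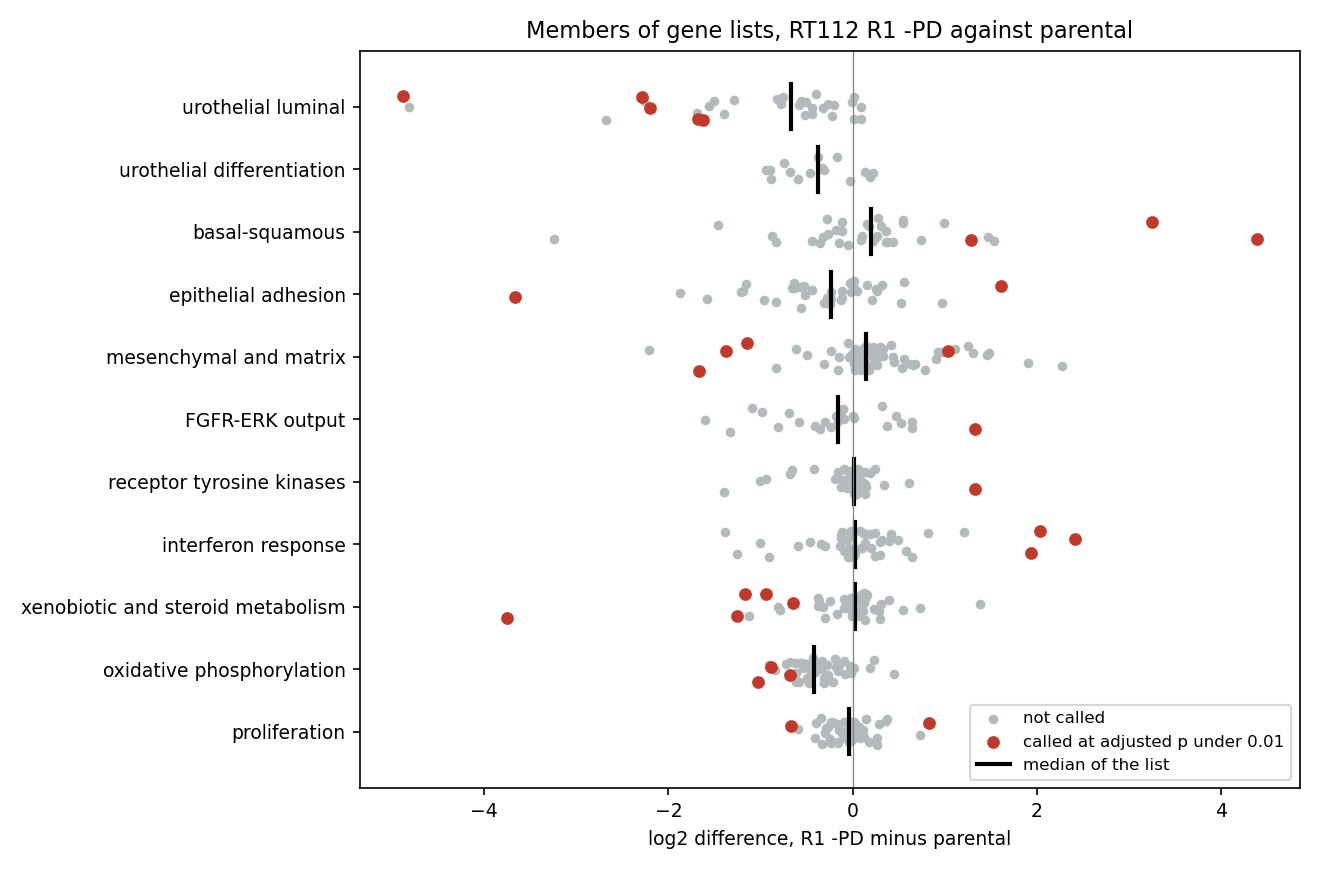
Log2 difference between R1 -PD and parental cells for each member of 11 gene lists, 1 point per gene, with called genes in red, others in grey and a black bar at the list median. The luminal median lies at -0.67 and that of oxidative phosphorylation at -0.42, while the other medians shown lie between -0.38 and 0.20.

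Chromosomes 4, 5 and 19 held more called rises than falls. On chromosome 5, 24 of 944 genes rose and 7 fell (3.28% called), on chromosome 4, 23 of 833 rose and 4 fell (3.24%), and on chromosome 19, 26 of 1483 rose and 4 fell (2.02%), against 1.45% over all genes. Ordered along the chromosome as in RefSeq (GRCh38.p14), the risen genes formed runs. A run was counted where at least 10 called genes followed each other in 1 direction with no gene called in the other direction between them. These runs were found by looking at the calls, so the counts in them are a description and no test is given.

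The run on chromosome 4 extended over 253 measured genes from RAP1GDS1 to NAF1, of which 21 rose (8.30%), among them PPP3CA, the catalytic subunit of calcineurin, the zinc transporter SLC39A8, CCNA2, the centriole kinase PLK4 and the chaperone HSPA4L. On chromosome 5 it extended over 143 genes from ANKH to GPBP1, of which 17 rose (11.9%). They include both chains of the oncostatin M receptor, OSMR (1.62, adjusted p = 0.00185) and IL6ST (1.68, adjusted p = 0.00047), the cadherin CDH10 (2.26, adjusted p = 0.00185), FYB1, the collagen receptor subunit ITGA2 (1.17, adjusted p = 0.00266), the kinase MAP3K1 (1.19, adjusted p = 0.00218) and RETREG1, a receptor for autophagy of the endoplasmic reticulum (1.65, adjusted p = 0.00182). On chromosome 19 it extended over 409 genes from FSTL3 to DNAJB1, of which 16 rose (3.91%), among them ZNF562 and its neighbour ZNF426 (1.09, adjusted p = 0.00354), C3, JUNB, an AP-1 subunit (1.62, adjusted p = 0.0097), and CARM1, an arginine methyltransferase (1.22, adjusted p = 0.00321). By the rule a single called fall, CYP4F22 (-1.21), ended the chromosome 19 run, and called rises went on past it. Among these were TPM4 (1.34), RAB8A (0.93), COLGALT1 (1.20) and IFI30 (2.20), so DNAJB1 is not the end of the raised stretch. Runs of called falls on chromosome 10 (AKR1C1 to FFAR4, 10 of 536 genes) and chromosome 6 (HLA-C to SLC35D3, 11 of 664) had medians over all their genes of 0.00 and 0.02.

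**Figure D3:**
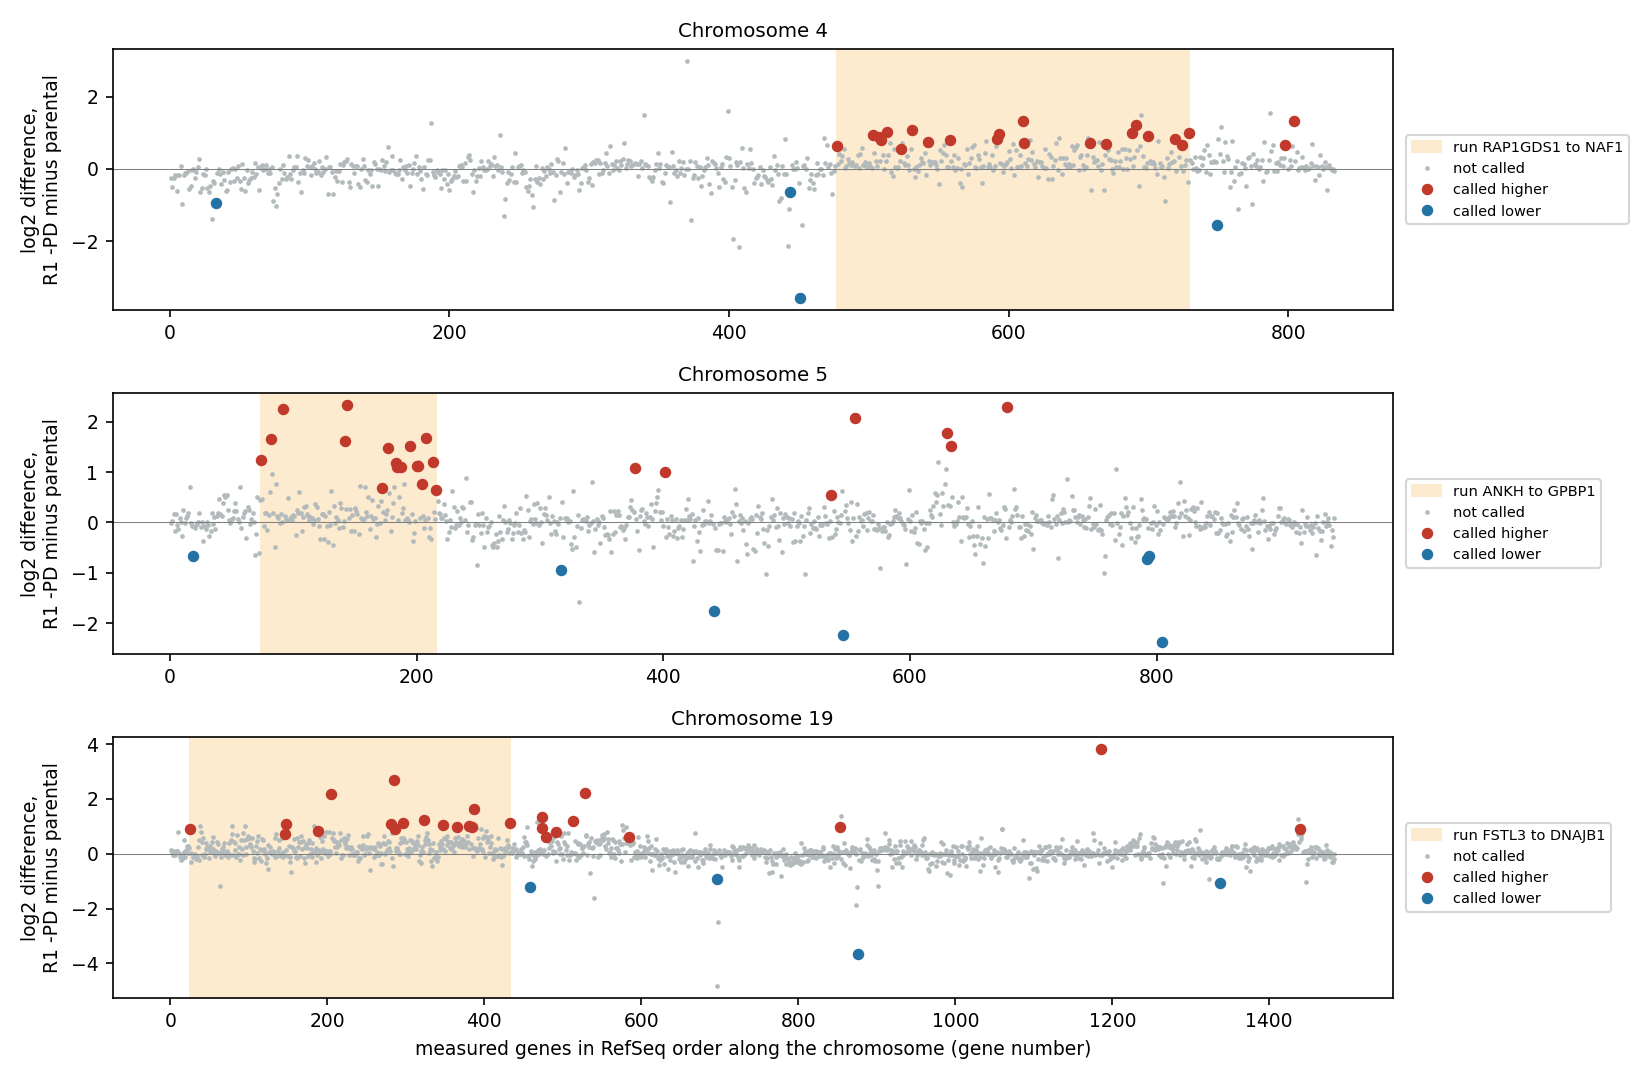
Log2 difference between R1 -PD and parental cells for each measured gene on chromosomes 4, 5 and 19, in RefSeq order, with called genes in colour and the run of called rises shaded. In each shaded run, uncalled genes (grey) also lie more often above 0 than below it.

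Most genes of these runs that were not called also lay above 0. Among those with a mean log2 signal above 6, the median difference of uncalled genes was 0.34 on chromosome 4 (96 of 111 above 0), 0.24 on chromosome 5 (44 of 51) and 0.37 on chromosome 19 (185 of 215), and for uncalled genes above 6 outside the runs it was -0.18 (73 of 254), -0.05 (157 of 389) and 0.02 (257 of 484). Over genes of any level and call, the medians inside the runs were 0.18, 0.13 and 0.20, and outside them -0.02, 0.01 and 0.03. On chromosome 19 the genes outside include the stretch past CYP4F22 in which called rises went on. For uncalled genes above 6 in the runs of falls it was -0.12 on chromosome 10 (77 of 233 above 0) and -0.06 on chromosome 6 (123 of 320), against -0.04 (70 of 167) and -0.15 (83 of 234) outside them. In the R1 +PD arrays, which did not enter the choice of the runs, the same uncalled genes had medians of 0.36, 0.42 and 0.35 over parental cells on chromosomes 4, 5 and 19, although the parental arrays are shared.

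By array, the median over all genes of the run above log2 6 was 0.46, 0.44 and 0.37 on chromosome 4 in R1 -PD, 0.51, 0.42 and 0.32 on chromosome 5, and 0.33, 0.53 and 0.29 on chromosome 19. In R2 -PD it was 0.61, 0.66 and 0.64 on chromosome 4, 0.61, 0.51 and 0.58 on chromosome 5 and 0.62, 0.57 and 0.59 on chromosome 19. In R3 -PD it was 0.50, 0.56 and 0.71 on chromosome 4, but 0.14, 0.09 and 0.28 on chromosome 5 and 0.04, 0.09 and 0.16 on chromosome 19. Parental cells given drug for 24 hours had 0.06, 0.08 and 0.04 on chromosome 4, -0.02, 0.04 and 0.02 on chromosome 5 and -0.08, -0.07 and -0.02 on chromosome 19. The chromosome 4 run was thus raised in all 3 RT112 derivatives, and those of chromosomes 5 and 19 were higher in R1 and R2 than in R3. These medians include the genes called in R1 -PD that defined the runs. The selection itself raises R1 -PD, so its distance from R3 -PD adds no support. R2 -PD and R3 -PD arrays did not enter the choice. The lowest R2 -PD values were 0.51 on chromosome 5 and 0.57 on chromosome 19, and the highest R3 -PD values were 0.28 and 0.16. RT4 R1 -PD against its own parental line had 0.06, 0.01 and 0.09 on chromosome 4, 0.02, 0.15 and 0.12 on chromosome 5 and -0.13, -0.09 and -0.18 on chromosome 19. What lies behind the runs was not tested.

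**Figure D4:**
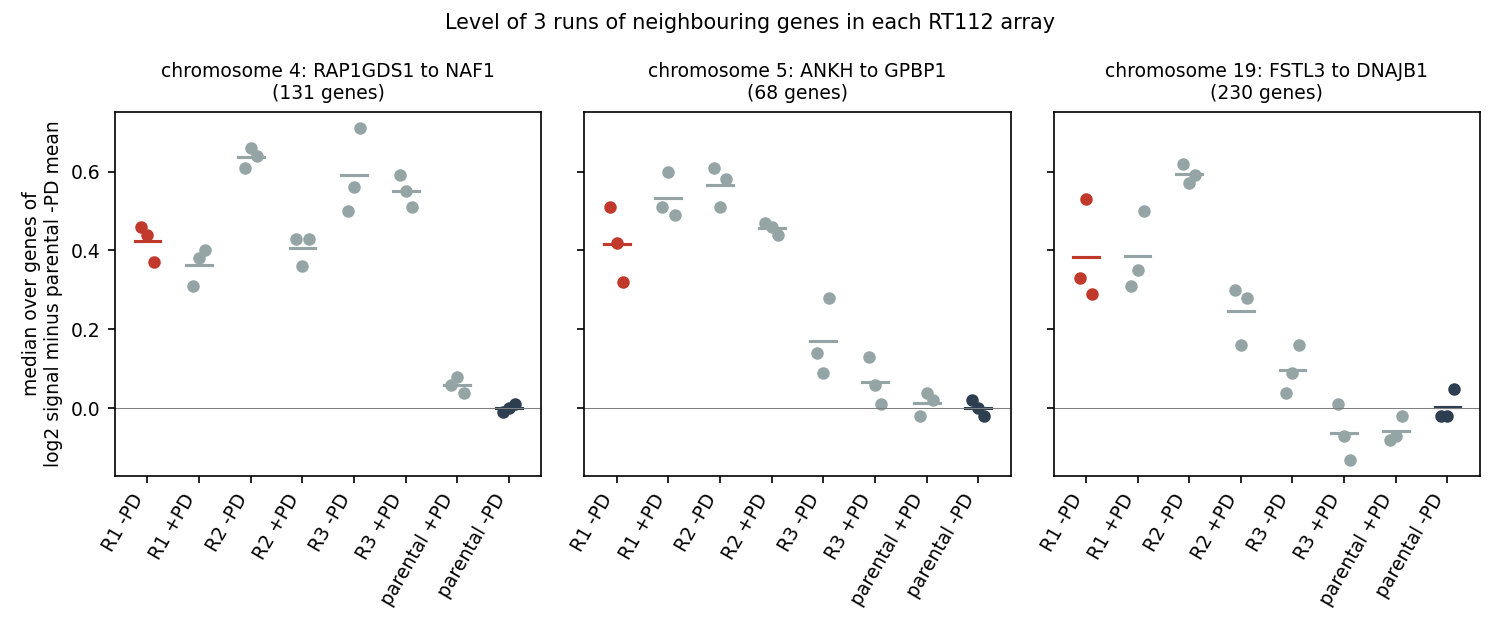
Median log2 signal of the run genes relative to the parental mean, 1 point per array, for the runs on chromosomes 4, 5 and 19. All R1 -PD, R1 +PD and R2 arrays lie above the parental arrays in the 3 runs, while R3 arrays do so on chromosome 4 and lie lower on chromosomes 5 and 19. The medians include the genes called in R1 -PD that defined the runs.

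R1 -PD was compared with the 2 other RT112 derivatives out of drug. Against R2 -PD, limma called 0 of 22411 genes (smallest adjusted p 0.0558), with 4139 at an unadjusted p under 0.05. The methods' t-test also called 0, and 1 fit over all RT112 arrays called 337, 63 higher and 274 lower in R1 -PD. The study named the t-test, beside ANOVA, for levels of single genes and for gene signatures, and limma for finding differing genes. Among the genes of largest change, LCP1 had a mean of 12.17 in R1 -PD and 12.48 in R2 -PD, KLK6 12.55 and 12.46, and BTBD16 5.57 and 5.66. KRT6C had 13.53, 14.08 and 13.31 in R1 -PD and 14.26, 10.82 and 11.01 in R2 -PD (1.61, adjusted p = 0.377), and SPRR1B had 10.03, 10.95 and 10.23 in R1 -PD and 11.37, 8.36 and 8.38 in R2 -PD (1.03, adjusted p = 0.532). For both, replicate 1 of R2 -PD was above all R1 -PD arrays and the other R2 -PD arrays were below them. On simulated data with the spread of these arrays, a true change of 1 log2 unit was called in 96 of 200 genes and a change of 2 in 174 of 200, so changes near 1 could go uncalled.

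Against R3 -PD, 276 genes were called, 92 higher and 184 lower in R1 -PD (1.23%, of which 0.411% higher and 0.821% lower). SPP1 had a mean of 6.71 in R1 -PD and 11.82 in R3 -PD (-5.11, adjusted p = 0.00174), and the cancer-testis gene SSX1 had 6.13, 6.07 and 6.10 in R1 -PD and a mean of 9.38 in R3 -PD (-3.28, adjusted p = 0.00136), while parental cells had 6.52, 6.05 and 6.08. IGFBP4 was 2.12 lower (adjusted p = 0.00136), at about the parental level in R3 -PD (mean 9.85). Higher in R1 -PD were the smooth muscle myosin light chain MYL9 (4.16, adjusted p = 0.00711), KRT6C (3.92, adjusted p = 0.00801), SPRR1B (3.87, adjusted p = 0.00174), the actin-associated TAGLN (2.15, adjusted p = 0.00378), HEG1 (1.89, adjusted p = 0.00667) and LCP1 (1.71, adjusted p = 0.00583). KLK6 had means of 12.55 in R1 -PD and 13.15 in R3 -PD. The count depended on scaling and on single arrays. With quantile normalization again it was 231 higher and 185 lower (55.5% higher, against 33.3%), with arrays centred on their medians 5 and 31 (13.9% higher), and without any single array it was 0 to 104, with 0 without R3 -PD replicate 1 and 1 without R3 -PD replicate 3.

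The RT4 line gave the same contrast, R1 out of drug against its parental cells, in a second background. In 1 limma fit of the 12 arrays, the effect differed between the lines for 478 genes (2.13%), 266 with the RT112 effect above the RT4 effect and 212 below. Among the 24 genes of largest change in RT112, the effect differed for LCP1 (4.60 in RT112 and 0.37 in RT4, difference 4.22, adjusted p = 8.05e-06), which was already high in RT4 parental cells at a mean of 11.98. KLK6 and SPRR1B, with effects of 3.82 and 3.25 in RT112, were at -0.06 and -0.01 in RT4, and FABP4, at -2.29 in RT112, was at 2.47 in RT4. SAMD9 was at 2.41 in RT112 and in RT4 its mean was 10.87 in R1 -PD and 8.46 in parental cells, a difference between lines of 0.01 (adjusted p = 0.994). GLIPR1, PTGS2, FYB1 and DHRS2 had effects of one sign in both lines, with no call for the difference (adjusted p = 0.214, 0.562, 0.313 and 0.223).

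Of the lists, interferon response had the largest share of genes whose effect differed, 16 of 48, all with the RT112 effect below that of RT4 (33.3%, median -1.32). CXCL10, a chemokine induced by interferon, was at a mean of 14.36 in RT4 R1 -PD and 9.15 in RT4 parental cells, with 4.67, 4.25 and 4.60 in RT112 R1 -PD and 4.23, 4.13 and 4.25 in RT112 parental cells. All 52 proliferation genes had an RT112 effect below that of RT4, with a median of -1.35 and a range of -2.60 to -0.12, and none was called. Basal and squamous genes differed for 6 of 36 (16.7%, against 2.13% of all genes), 5 of them with the RT112 effect above. Replicate 1 of RT4 parental cells weighed on this comparison, and without it 704 genes were called.

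**Figure D5:**
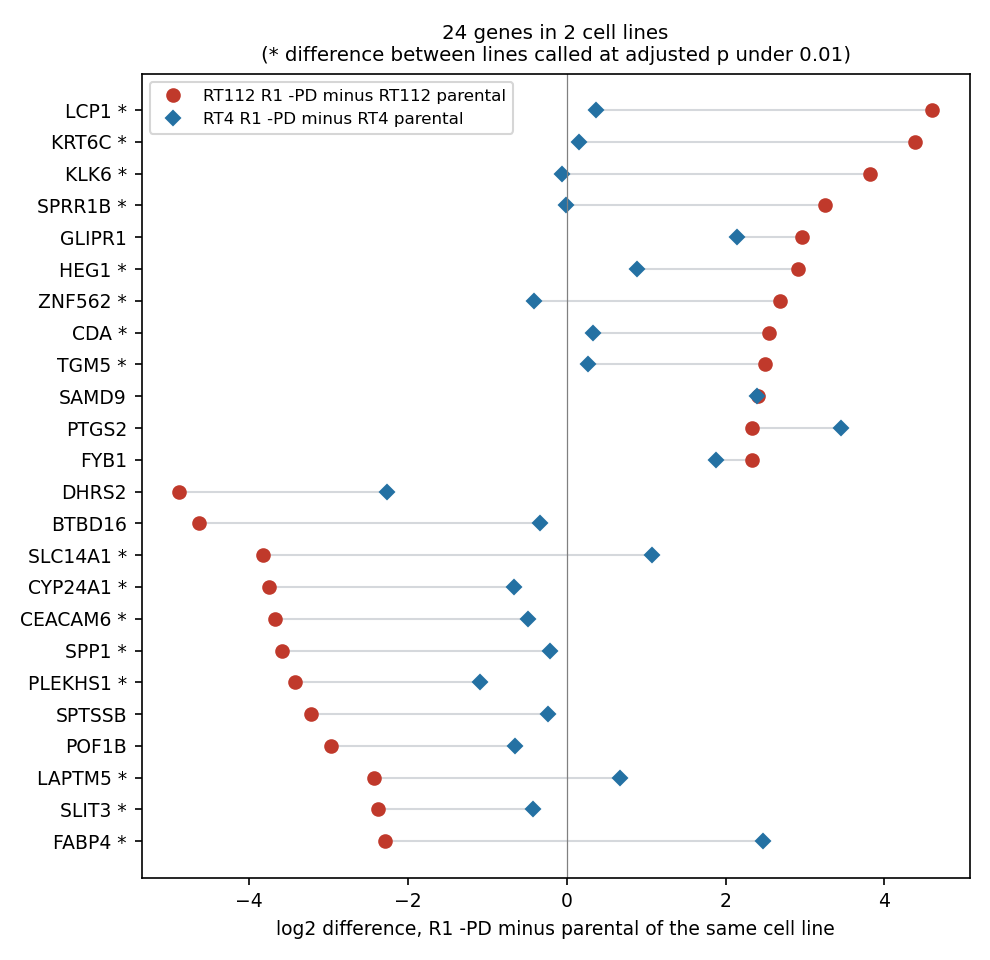
Log2 difference between R1 -PD and parental cells in RT112 (circles) and in RT4 (diamonds) for the 12 genes with the largest rises and the 12 with the largest falls in RT112. Stars mark genes whose effect differed between the lines at an adjusted p under 0.01, and the 2 points of SAMD9 nearly coincide (difference 0.01).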

How the data were processed

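Total RNA of each condition was measured on Affymetrix HTA 2.0 arrays. The deposited values are log2 signals that the authors made with Affymetrix Expression Console and RMA, per the labels. The paper's methods name the sketch form of RMA in Affymetrix Power Tools. Whether all arrays were normalized together is not given in the sources used here. Array data carry no read depth, and the number of arrays limits the precision. Of 70523 probe sets, 67528 were transcript clusters and 2995 controls or others. Of the clusters, 23781 had 1 gene symbol, 1543 several and 42204 none in the annotation used, and 249 symbols were updated through RefSeq. Where a gene had more than 1 probe set (528 genes), the brightest on average stood for it, which left 22411 genes.

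Each comparison was fitted on its own arrays with limma 3.58.1 (lmFit and eBayes) in R 4.3.3, with statmod 1.5.0, and p-values were adjusted by Benjamini-Hochberg over all 22411 genes, with a threshold of 0.01. On simulated data with the spread of R1 -PD and parental arrays, 110 of 200 planted log2 differences of 1 and 183 of 200 of 2 were called, with 2 other genes called each time, and 0 were called with none planted. The members and gene lists were chosen with earlier results of these data known. Named genes are the 12 largest rises and falls among called genes whose groups do not overlap, up to 4 called members of each list or the 1 with the largest difference where none was called, a fixed set of receptors and markers, and the 5 largest rises and falls of the other comparisons. Other genes are named as list or run members. Promoters and gene order came from RefSeq (GRCh38.p14). Alternatives covered the fit, filters, scaling, test, block and each array left out.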

Additional observations from a re-analysis of the deposited data

Results flagged for a closer look

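Each result below drew attention because the effect of R1 -PD over parental cells differed between RT112 and RT4 in a test of the difference itself, at an adjusted p under 0.01 in limma with Benjamini-Hochberg adjustment over 22411 genes. Of 114 named genes, 38 did so, 22 with the RT112 effect above and 16 below the RT4 effect, and 18 had effects of opposite sign. Some of the 114 were named because this difference was large, so the count is a description. Values are log2 differences. The formal test for an outlying sample needs at least 4 per group and was not applied to groups of 3.

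Among genes called in RT112, the effect was above that of RT4 for KRT6C (4.39 in RT112 and 0.15 in RT4, difference 4.24), LCP1 (4.60 in RT112 and 0.37 in RT4, difference 4.22), KLK6 (3.82 in RT112 and -0.06 in RT4, difference 3.88), SPRR1B (3.25 in RT112 and -0.01 in RT4, difference 3.26), ZNF562 (2.69 in RT112 and -0.41 in RT4, difference 3.11), ACSL1 (1.34 in RT112 and -1.08 in RT4, difference 2.42), TGM5 (2.5 in RT112 and 0.27 in RT4, difference 2.23), CDA (2.55 in RT112 and 0.33 in RT4, difference 2.22) and DSP (1.61 in RT112 and -0.42 in RT4, difference 2.03). It was also above for HEG1 (2.91 in RT112 and 0.89 in RT4, difference 2.02), EPHA4 (1.33 in RT112 and -0.69 in RT4, difference 2.02), SCNN1A (-2.20 in RT112 and -4.04 in RT4, difference 1.83), HSD3B1 (1.75 in RT112 and 0.05 in RT4, difference 1.70), KDM1A (1.22 in RT112 and -0.20 in RT4, difference 1.42), HOXC10 (1.04 in RT112 and 0.09 in RT4, difference 0.95), PITX1 (0.54 in RT112 and -0.39 in RT4, difference 0.93), MAGEA6 (0.95 in RT112 and 0.06 in RT4, difference 0.89) and ITGA5 (1.03 in RT112 and 0.18 in RT4, difference 0.85).

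Among genes not called in RT112 against parental cells, it was above for SLC6A14 (3.91 in RT112 and -1.45 in RT4, difference 5.36), ASS1 (-0.21 in RT112 and -4.02 in RT4, difference 3.81), TP53INP1 (0.65 in RT112 and -2.79 in RT4, difference 3.44) and CD24 (0.94 in RT112 and -0.21 in RT4, difference 1.15).

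The RT112 effect was below that of RT4 for WNT5A (-1.41 in RT112 and 0.03 in RT4, difference -1.44), HLA-C (-1.15 in RT112 and 0.44 in RT4, difference -1.59), SLIT3 (-2.38 in RT112 and -0.43 in RT4, difference -1.95), IGFBP4 (-2.13 in RT112 and 0.04 in RT4, difference -2.18), PLEKHS1 (-3.42 in RT112 and -1.09 in RT4, difference -2.33), TFPI (-2.00 in RT112 and 0.57 in RT4, difference -2.57), CYP24A1 (-3.75 in RT112 and -0.67 in RT4, difference -3.08), LAPTM5 (-2.43 in RT112 and 0.67 in RT4, difference -3.09), CEACAM6 (-3.67 in RT112 and -0.49 in RT4, difference -3.18), SPP1 (-3.58 in RT112 and -0.21 in RT4, difference -3.37), FABP4 (-2.29 in RT112 and 2.47 in RT4, difference -4.76) and SLC14A1 (-3.82 in RT112 and 1.07 in RT4, difference -4.88), all of them called in RT112. It was below without a call in RT112 for CXCL10 (0.30 in RT112 and 5.21 in RT4, difference -4.91), PLAAT3 (0.26 in RT112 and 5.33 in RT4, difference -5.06), OLR1 (0.63 in RT112 and 6.06 in RT4, difference -5.43) and NLRP7 (0.29 in RT112 and 6.26 in RT4, difference -5.97). For NLRP7 and CXCL10 all RT112 arrays lay near the array medians, so their RT112 differences are lower limits in size.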

How the results depend on the processing

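No called difference of a named gene changed sign under any alternative run, but the direction with more calls turned in several. For R1 -PD against parental cells (171 higher and 153 lower) these include the fit over all arrays and the replicate block (145 and 194). They also include the fits without R1 -PD replicate 2 (93 and 146) or parental replicate 1 (37 and 58). Against R1 +PD (668 and 607) the replicate block gave 107 and 154. Against R3 -PD (92 and 184) quantile normalization again gave 231 and 185. For R1 +PD against parental cells (1161 and 1462) it gave 1307 and 1195. The difference between lines (266 and 212) had 120 and 134 with the block. Of the uncalled named genes, MET, VIM, IGFBP3, PRDX6 and HRAS had a difference of either sign with 1 array left out. For R1 -PD against parental cells the 324 calls became 785 in 1 fit over all arrays of the line (309 higher and 476 lower, 246 shared with the 324), 158 with arrays centred on their medians, 3 by the methods' t-test and 192 with a log2 difference of at least 1. They were 11 to 239 with 1 array left out. Counts within 1.5 times were 302 with every probe set, 432 above the 30th percentile of level, 291 with a trended and robust prior and 465 with quantile normalization again. For R1 -PD against R1 +PD (1275) they were 4419 in the fit over all arrays, 843 centred, 14 by the t-test and 114 to 3091 with 1 array left out. For R1 -PD against R2 -PD (0) they were 337 and 0 to 4, the 4 without R2 -PD replicate 3. For R1 -PD against R3 -PD (276) they were 1068 in the fit over all arrays, 424 above the 30th percentile, 416 with quantile normalization again, 36 centred, 0 by the t-test, 165 with a difference of at least 1 and 0 to 104 with 1 array left out. For R1 +PD against parental cells (2623) they were 5225, 548 by the t-test, 1517 with a difference of at least 1 and 722 to 4837. For the difference between cell lines (478) they were 844, 302 centred and 195 to 704.

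Whether equal replicate numbers pair the samples is not given in the labels. The deviations of same-numbered R1 -PD and parental arrays correlated at 0.30, -0.01 and -0.13. Those of differently numbered arrays correlated at -0.31 to 0.36, so these values cannot decide it. Replicate 1 had the lowest luminal list median in R1 -PD, R2 -PD, R3 -PD and parental cells, though not in R1 +PD. With the replicate number as a block, the adjusted p went from 0.00609 to 0.000317 for DHRS2, and from 0.00871 to 0.0117 for LOXL1. With the replicate number as a block, 339 genes were called for R1 -PD against parental cells (225 shared with the 324), 261 against R1 +PD, 0 against R2 -PD, 250 against R3 -PD, 482 for R1 +PD against parental cells and 254 for the difference between lines. Of the 24 largest changes, 7 kept the call without each of the 6 arrays in turn (LCP1, KRT6C, ZNF562, SAMD9, FYB1, SLIT3 and FABP4), and LAPTM5 lost it whichever was left out. Counts of called genes within lists moved by over 1.5 times in 97 of 192 settings with 1 array left out and in 80 of 288 others. With 1 array left out, the 5 luminal calls became 1 to 6, the 5 xenobiotic and steroid metabolism calls 0 to 2, the 3 basal and squamous calls 1 to 4, the 3 interferon response calls 2 to 3, the 4 mesenchymal and matrix calls 0 to 2 and the 3 oxidative phosphorylation calls 0 to 5. The cause of these shifts was not tested, but leaving out an array leaves 5 for the fit. Signal over background was not tested, which limits values near the array medians.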
